A study of Danio rerio with 6 samples.

Results

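Periplakin (ppl), claudin e (cldne), cadherin 1 (cdh1), annexin A1a (anxa1a) and ictacalcin (icn) were followed on every array of a zebrafish series on vascular development. They were taken as genes of the junctions and surface of the periderm, the outermost cell layer of the fish embryo. Every probe whose accession or description names one of them was used, which gave 8 of 14067 zebrafish probes and 5 of 5020 named genes. There were 2 probes for ppl, 3 for anxa1a and 1 each for icn, cldne and cdh1, and 7 of the 8 were above background on at least 1 array. The number in brackets after a probe is its number in the array design.

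The periderm covers the fish embryo as a flat sheet from early development on, and its cells hold together through desmosomes, adherens junctions and tight junctions. In mammals, periplakin links desmosomes to keratin filaments, E-cadherin (the protein of cdh1) joins neighbouring cells through catenins, and claudins seal the space between them. Annexins bind membrane lipids in the presence of calcium, and ictacalcin is a small calcium-binding protein of the S100 family. In mammals annexin A1 is also abundant in leukocytes.

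The series holds 6 oligonucleotide arrays of a single colour, 1 for each condition. Total RNA came from whole embryos of 18 and 24 hours post fertilisation (hpf). Cells with green fluorescence (GFP) were collected on a flow sorter from dissociated Tg(Fli1:EGFP) embryos of 18, 24 and 28 hpf, a line in which regulatory sequence of fli1 drives EGFP in endothelium, blood cells and part of the neural crest. GFP-positive cells of Tg(Flk:GRCFP) embryos, a line named for the endothelial growth factor receptor gene now called kdrl, filled the remaining array. Its stage is 18 hpf by the title and the design text but 24 hpf by the sample description. The title was followed here, and values against the 24 hpf whole embryo are also given. The fish were not treated, no mutant allele is named for any group, and the strain of the whole embryos and the number of embryos pooled are not given in the sources used here. The source label reads whole larvae on all 6 arrays, and the extraction protocol names the Fli1 line alone. All RNA had been amplified in 2 rounds before it was labelled with Cy3.

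The arrays differed in strength. After subtraction of local background, the 99th percentile of intensity was 20536 to 26835 on the whole-embryo arrays and 3039 to 10112 on the sorted ones, and 24.7% to 42.6% of 13999 unflagged probes were above background. Normalized signal is therefore used throughout, on the log2 scale, and intensity is quoted where the scaling matters. Of 12 endothelial marker genes 4 had a named probe, and their summed signal on the linear scale was 917 to 935 in whole embryos and 1427 to 1900 in sorted cells. Among them kdrl was above background on all 6 arrays, fli1 on the Flk array alone and erg on none. Of 8 erythroid markers 6 had a probe, and all 6 were above background on every sorted array and on the 24 hpf whole-embryo array, and 4 on that of 18 hpf. Their summed signal was 1919 and 14325 in whole embryos of 18 and 24 hpf and 9589 (Flk) to 98405 (Fli1 of 28 hpf) in sorted cells. Of 4 neural crest markers, 1 or 2 were above background on each array. Of 12 epidermis and periderm markers 7 had a probe, and 5 or 6 of these were above background on each sorted array. Their summed signal was 67470 to 75601 in whole embryos and 8869 to 19430 in sorted cells. The keratin krt5, saturated in whole embryos, made up most of the sum there. Of the 7, 5 had a lower mean in sorted cells (krt4, krt5, krt92, krt15 and, by 0.19 on the log2 scale, cldni), and krt91 (0.95) and cldnb (0.58) had a higher one, neither past limma's threshold (adjusted p = 0.208 and 0.291). The part of these markers in the results below was not tested.

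Sorted cells gave less signal than whole embryos on ppl probe 1 and on the brightest anxa1a probe. The other ppl probe was above background on no array and was not tested. The icn, cldne and other anxa1a probes were also below both whole-embryo arrays on every sorted array but did not pass the test, and the cdh1 probe, dim on every array, read slightly the other way. In bulk RNA, fewer cells that express these genes and less RNA per such cell cannot be told apart, and which cells gave the signal was not tested. Only the sorted cells had been dissociated and sorted, so effects of that handling cannot be told apart from either. The test was limma with Benjamini-Hochberg adjustment over 7602 probes above background on at least 1 array, 4 sorted against 2 whole-embryo arrays. No condition had a replicate, so its p-values weigh the difference against a spread that mixes stage, reporter line and the error of single arrays. Of the 7 member probes tested, 2 fell and 0 rose at an adjusted p under 0.05, where limma called 0.842% of all probes lower and 0.0658% higher. The groups of arrays did not overlap for any of the 7, as for 36.9% of all probes. Every sorted array was below both whole-embryo arrays for 6 of them, as for 1213 of 7602 probes, and above both for cdh1, as for 1589. The probes of ppl (probe 1), cldne and anxa1a (probe 3) entered the test through whole-embryo arrays alone and that of cdh1 through a sorted array alone, so the order of these 4 follows in part from the filter.

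**Figure D1:**
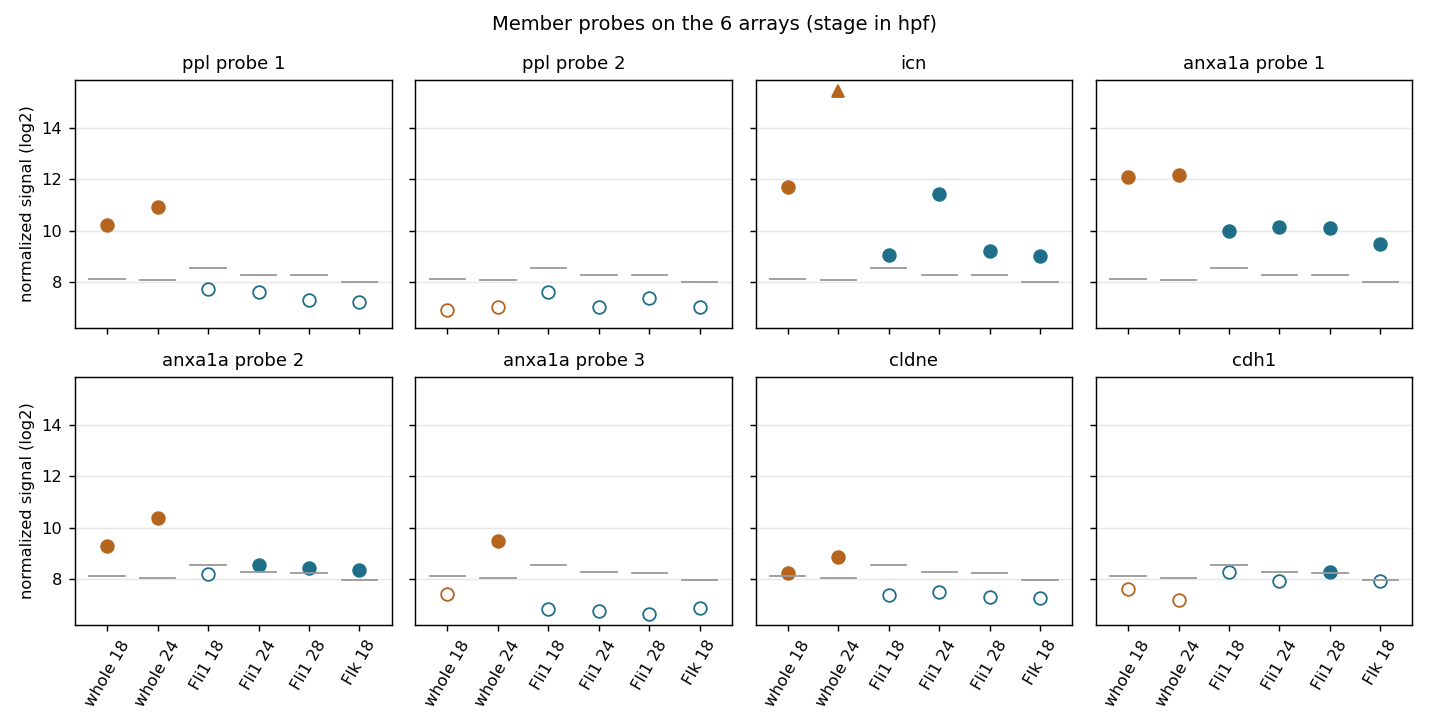
Each panel plots the normalized log2 signal of a member probe on the 6 arrays, with whole embryos in orange, sorted cells in blue and the stage in hpf below. Filled points were above background, open points were not, a triangle marks a saturated spot and grey bars give each array's background limit, so that ppl probe 1 and cldne are filled on the whole-embryo arrays alone.

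The plakin ppl was read above background by probe 1 alone, and in whole embryos alone. Probe 1 of ppl (04894) read 10.21 and 10.91 in whole embryos of 18 and 24 hpf, 7.72, 7.62 and 7.30 in Fli1 cells of 18, 24 and 28 hpf, and 7.23 in Flk cells. Both whole-embryo arrays were far above the background limit, no sorted array reached it, and the groups did not overlap. Sorted cells were lower by a log2 difference of -3.09 (SE 0.31, 4 against 2 arrays, limma adjusted p = 0.00545). Because the sorted side gave only a bound, this is at least 4.92-fold lower. The probe entered the test through the whole-embryo arrays alone, so the result is in part set by the filter. With no filter on dim probes its adjusted p was 0.00604. The difference kept its call without any single array, at -3.44 to -2.75 with adjusted p-values of 0.0143 to 0.0448. With a stage term that placed the Flk array at 24 hpf the difference was -3.06 (SE 0.33) and missed the threshold (adjusted p = 0.0648).

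Before scaling, ppl probe 1 had a net intensity of 2527 in whole embryos and 135 in Fli1 cells at 18 hpf, the latter under that array's background limit of 221.6. The 2 arrays differ in overall strength, so no fold is taken from these intensities. Probe 2 of ppl (13010) was at or under 7.60 on all 6 arrays and above background on none. It was not tested, and it showed neither the level nor the order of probe 1. The files name both probes through the same predicted transcript and a clone name that the gene table lists as a synonym of ppl.

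The tight junction gene cldne had the same pattern of detection as ppl probe 1. Its probe (09421) read 8.24 and 8.86 in whole embryos of 18 and 24 hpf, 7.38, 7.48 and 7.32 in Fli1 cells of 18, 24 and 28 hpf, and 7.25 in Flk cells. Only the whole-embryo arrays were above background, that of 18 hpf narrowly, with a net intensity of 422 against a limit of 370. The groups did not overlap, and the log2 difference of -1.19 (SE 0.28, at least 1.22-fold lower) did not pass limma's threshold (adjusted p = 0.118). The 4 sorted values lay closer together than the SD of 0.29 to 0.47 that control spots showed between pairs of arrays, so they give no order.

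The adherens junction gene cdh1 was at the edge of detection. Its probe (07039) read 7.62 and 7.17 in whole embryos of 18 and 24 hpf, 8.27, 7.94 and 8.29 in Fli1 cells of 18, 24 and 28 hpf, and 7.93 in Flk cells. All sorted arrays were above both whole-embryo arrays on this scale, but the Fli1 array of 28 hpf was the sole one above background, with a net intensity of 218.5 against a limit of 212. At a limit set by the 99th percentile of the control spots it was above background nowhere. The log2 difference was 0.71 (SE 0.28, limma adjusted p = 0.238) and did not pass the test. Net intensity at 18 hpf was lower in Fli1 cells (188.5) than in whole embryos (232), so the direction at that stage rests on the scaling between arrays.

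By its brightest probe, the calcium- and lipid-binding anxa1a was lower in sorted cells but still read above background in all of them. Probe 1 of anxa1a (10653) read 12.10 and 12.16 in whole embryos of 18 and 24 hpf, 9.997, 10.15 and 10.10 in Fli1 cells of 18, 24 and 28 hpf, and 9.47 in Flk cells. It was above background everywhere, with both whole-embryo arrays above all sorted ones. The sorted arrays give no firm order among themselves. The Fli1 cells of 24 hpf were 0.15 above those of 18 hpf here and 0.69 above them on the authors' scaled intensity, where the Flk array was no longer below the Fli1 array of 18 hpf (0.03). Sorted cells were lower by a log2 difference of -2.20 (SE 0.29, limma adjusted p = 0.0135), a measured 4.60-fold. Of 5 myeloid marker genes, 4 were above background on each whole-embryo array and 5 on each sorted array, with a summed signal of 2199 to 4876 and 3167 to 15927. The sum in the 24 hpf whole embryo (4876) was above those in Fli1 (3786) and Flk cells (3167) of 18 hpf. In Fli1 cells of 24 and 28 hpf lyz made up most of it. Of the 5, coro1a alone had a lower mean in sorted cells (-0.34 on the log2 scale). The part of these markers in the anxa1a values was not tested. The size held without any single array (-2.28 to -2.05). The call was lost without the whole embryo of 18 hpf (adjusted p = 0.0772), the whole embryo of 24 hpf (0.110) or the Fli1 cells of 18 hpf (0.0598). With a stage term that placed Flk at 24 hpf the difference was -2.25 and missed the threshold (adjusted p = 0.0773).

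The other anxa1a probes differed with stage in whole embryos. Probe 2 (09024) read 9.28 and 10.39 in whole embryos of 18 and 24 hpf, 8.20, 8.57 and 8.42 in Fli1 cells of 18, 24 and 28 hpf, and 8.36 in Flk cells, with the Fli1 array of 18 hpf below background. Its groups did not overlap, and its difference of -1.45 (SE 0.35) did not pass limma's threshold (adjusted p = 0.124). It was -0.89 without the 24 hpf whole embryo (adjusted p = 0.370). Probe 3 (05576), named by its description alone, read 7.43 and 9.47 in whole embryos and 6.83, 6.77, 6.65 and 6.87 in Fli1 cells of 18, 24 and 28 hpf and Flk cells. The 24 hpf whole embryo was the one array above background, and the difference was -1.67 (SE 0.50, at least 1.14-fold lower, limma adjusted p = 0.180). Without the whole embryo of 18 hpf probe 3 was called at -2.69 (adjusted p = 0.0236), and without that of 24 hpf it was at -0.65 (adjusted p = 0.457). All 3 probes had the same order between fractions, which for probe 3 follows in part from the filter. The log2 difference of the 24 hpf from the 18 hpf whole embryo was 0.06 for probe 1 (-0.18 with 75th percentile scaling) and 2.04 for probe 3.

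The S100 gene icn had the widest spread between stages of the 5 genes. Its probe (05356) read 11.71 in whole embryos of 18 hpf and 15.43, saturated, in those of 24 hpf. It read 9.05, 11.43 and 9.20 in Fli1 cells of 18, 24 and 28 hpf and 9.03 in Flk cells. It was above background on all 6 arrays. The Fli1 cells of 24 hpf stood over 2 log2 units above the other sorted arrays and just under the 18 hpf whole embryo, so the groups were next to each other without overlap. The log2 difference over all arrays was -3.89 (SE 1.04) and did not pass limma's threshold (adjusted p = 0.151). It was -2.03 without the 24 hpf whole embryo (adjusted p = 0.436) and -5.75 without that of 18 hpf (adjusted p = 0.0616).

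With stage in the model, icn passed the test in 2 of 3 fits. The 4 Fli1 and whole-embryo arrays of 18 and 24 hpf, with stage as a block, gave a difference of -3.33 (limma adjusted p = 0.00162) on 1 residual degree of freedom, and a stage term with the Flk array at 18 hpf gave -3.24 (adjusted p = 0.0247). With the Flk array at 24 hpf the difference was -4.11 and did not pass (adjusted p = 0.170). At scan setting 45, an alternative chosen after the saturated spot was seen, icn was not saturated and had a net intensity of 2821.5 and 20231.5 in whole embryos of 18 and 24 hpf. On the same setting it was 93.5, 827 and 131.5 in Fli1 cells of 18, 24 and 28 hpf and 161.5 in Flk cells. The difference between fractions at this setting was -3.46 (SE 0.95, limma adjusted p = 0.180). The ratio of net intensity between the whole-embryo stages was 7.17 at setting 45, 7.11 at setting 55 and 2.13 at setting 65. The bright spot had reached its ceiling at settings 55 and 65, so the ratios there are lower bounds.

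**Figure D2:**
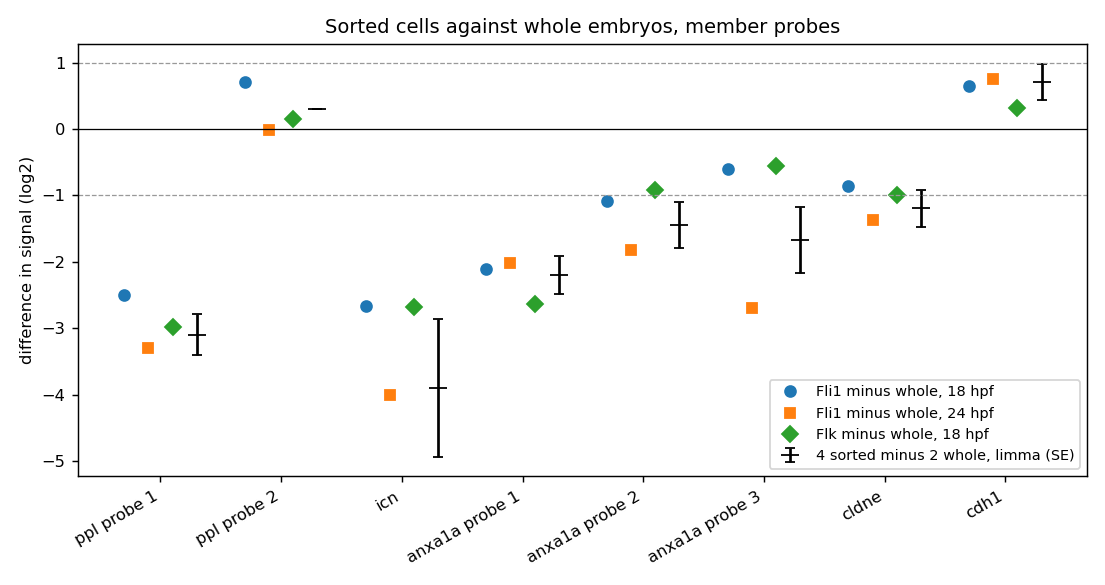
The vertical axis is the difference in normalized log2 signal, with coloured points for single pairs of arrays of one stage and black crosses for limma's 4 sorted against 2 whole-embryo arrays with their SE. Dashed lines mark a 2-fold difference, which ppl probe 1, icn and anxa1a probe 1 pass in all 3 pairs and which cdh1 does not reach. The untested ppl probe 2 has its mean difference without an error.

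Pairs of one stage asked which member probes differed by at least 2-fold between sorted cells and whole embryos, with the brighter array above background. At 18 hpf, 4 of the 8 probes were lower in Fli1 cells and 0 higher, against 13.3% and 9.27% of all probes. At 24 hpf, 6 were lower and 0 higher, against 8.56% and 4.06%. In Flk cells 3 were lower and 0 higher than in the 18 hpf whole embryo, against 6.95% and 7.14%. The Fli1 and Flk pairs of 18 hpf share their whole-embryo array, and a pair of single arrays has no replicate check.

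The 3 probes lower in all 3 pairs belonged to ppl, icn and anxa1a. Probe 1 of ppl was at least 3.16-fold lower in Fli1 cells of 18 hpf, at least 6.24-fold lower in those of 24 hpf and at least 4.71-fold lower in Flk cells. The icn probe was 6.33-fold lower in Fli1 cells of 18 hpf and 6.43-fold lower in Flk cells. At 24 hpf, where its whole-embryo spot was saturated, its log2 difference was -4.00, and -3.56 at scan setting 45. Probe 1 of anxa1a was 4.30-fold, 4.04-fold and 6.19-fold lower, in the order used for ppl. These sizes depend on the scaling. In the Fli1 pair of 18 hpf, the log2 difference of icn was -2.66 here, -3.56 with 75th percentile scaling and -3.79 on the authors' scaled intensity, and that of anxa1a probe 1 was -2.10, -3.35 and -3.67. In the Flk pair the authors' scaled intensity gave -3.57 for icn and -3.64 for anxa1a probe 1, against -2.68 and -2.63 here, and -3.58 for ppl probe 1, against -2.98. In the Fli1 pair of 24 hpf it gave -4.12 for ppl probe 1 and -2.76 for anxa1a probe 1, against -3.29 and -2.02 here. Probe 2 of anxa1a was at least 1.65-fold lower in Fli1 cells of 18 hpf, 3.53-fold lower in those of 24 hpf and 1.89-fold lower in Flk cells. At 18 hpf its log2 difference was -1.08 with the Fli1 side below background, so its 2-fold call there rests on that dim signal. The 2 probes that joined at 24 hpf were anxa1a probe 3, at least 2.31-fold lower, and cldne, at least 1.51-fold lower. For cldne the log2 difference was -1.38 with the Fli1 side below background, so its 2-fold call also rests on a dim signal. For cdh1 both sides of each pair were below background, so it has no fold. Set against the 24 hpf whole embryo, the stage its description gives, the Flk array had 6 member probes lower and 0 higher, against 6.88% and 5.84% of all probes.

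The 24 hpf whole-embryo array gave more signal than that of 18 hpf on icn and on anxa1a probes 2 and 3. Each stage had 1 array, so the difference between stages was not tested. Here 3 member probes were at least 2-fold higher and 0 lower, against 6.51% and 3.99% of all probes. The icn log2 difference was 3.72 with the saturated spot and 3.26 at scan setting 45, where no spot of it was saturated. Probe 2 of anxa1a was 2.16-fold higher and probe 3 at least 2.56-fold higher. Probe 1 of anxa1a differed by 1.04-fold, ppl probe 1 by 1.62-fold and cldne by 1.53-fold, all under the 2-fold limit.

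Within the Fli1 cells icn was the one member that passed 2-fold. It was 5.20-fold higher at 24 than at 18 hpf and 4.68-fold lower at 28 than at 24 hpf, with log2 differences of 2.08 and -1.90 at scan setting 45. Over all probes 5.33% were higher and 3.50% lower in the first of these pairs, and 7.21% and 11.4% in the second. Both rest on the single 24 hpf array. Between Flk and Fli1 cells of 18 hpf 0 member probes passed 2-fold in either direction, where 5.64% of all probes were higher and 3.30% lower. The log2 difference of Flk from Fli1 cells was -0.53 for anxa1a probe 1 (0.03 on the authors' scaled intensity) and -0.02 for icn, without a test in either case.

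Families of the 5 genes and other epidermal genes were then described by lists, each gene by its brightest probe and without the 5 genes themselves. The desmosome and plakin list held 20 other genes, of which 2 were on the array by name and 1 was measured. That gene, desmoplakin a (dspa), had a difference of 0.10 against -3.09 for ppl. By pairs, its log2 difference was 1.04 in Fli1 cells of 18 hpf, -0.47 in those of 24 hpf and 0.60 in Flk cells. Of 14 other adherens junction genes 3 were measured, with a median of 0.41. All 3 entered the test through sorted arrays alone, so their direction follows in part from the filter. Of 17 other cadherins 3 were measured, with a median of 0.23. Limma called 0 lower and 0 higher in each of these lists. Neural cadherin (cdh2), a reference gene here, was above background on every array and read 10.35 and 10.61 in whole embryos and 10.66, 11.17, 10.41 and 10.59 in sorted cells, so its groups overlapped. Its difference was 0.23 (SE 0.30, limma adjusted p = 0.663). No unflagged probe was named for the vascular cadherin gene cdh5 or for the epithelial genes epcam and tp63, so they have no values here.

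Of 40 other claudin and tight junction genes 9 were measured, with a median difference of 0.03 (0.04 over all probes tested). Limma called 0 lower and 0 higher. Fli1 cells had 2 of them at least 2-fold above the whole embryo at 18 hpf, against 9.27% of all probes. At 24 hpf 2 were at least 2-fold below it, against 8.56%. The claudin gene cldni belonged to both counts. It read 7.91 and 11.12 in whole embryos of 18 and 24 hpf, 9.36, 9.70 and 8.48 in Fli1 cells of 18, 24 and 28 hpf and 9.75 in Flk cells, so that the sorted cells lay between the whole-embryo stages. Of 15 other annexins 7 were measured, with a median of 0.10, differences from -0.72 to 0.63 and 0 calls in either direction. None of the 7 was 2-fold apart in the stage-matched pairs, where anxa1a probe 1 was lower in each. In the S100 list 1 other gene of 13 was measured, s100a10b, with a difference of -0.18 against -3.89 for icn. It was above background on the 24 hpf whole-embryo array alone, so it has no fold between fractions. No test compared the members with their families, and dspa and s100a10b are named because each was the sole measured gene of its list.

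The list of 32 other epidermis and periderm genes had 15 measured members and a median difference of -0.93. The gene at the median entered the test through a whole-embryo array alone, and some others through sorted arrays alone. The median and the pair counts of this list therefore depend in part on the filter. Limma called 3 of the 15 lower and 0 higher, all keratins, the filament proteins of epithelial cells. The keratin krt92 fell by 3.68 (SE 0.44, adjusted p = 0.0110) and was above background on 3 of the 4 sorted arrays. Saturated in whole embryos, krt5 fell by 2.71 (SE 0.44, adjusted p = 0.0350). The third, krt15, fell by 1.64 (SE 0.24, adjusted p = 0.0208, at least 1.95-fold), and it entered the test through the whole-embryo arrays alone, so its call is in part set by the filter. A further keratin, krt97, had a difference of -2.79 (SE 0.53, adjusted p = 0.0649) and was 2-fold lower in all 3 stage-matched pairs. The periderm keratin krt4 did not pass, at -1.68 (SE 0.87, adjusted p = 0.328). It read 10.76 and 13.79 in whole embryos of 18 and 24 hpf and 10.21, 10.05, 12.12 and 10.02 in Fli1 cells of 18, 24 and 28 hpf and Flk cells, so its groups overlapped. Like icn it was highest in the 24 hpf whole embryo, but its high sorted array was the Fli1 one of 28 hpf, where icn was low. At 18 hpf 5 of the 15 genes were 2-fold lower in Fli1 cells and 0 higher, against 13.3% and 9.27% of all probes. At 24 hpf 7 were lower and 1 higher, against 8.56% and 4.06%. In Flk cells 5 were lower and 1 higher, against 6.95% and 7.14%. Some keratin genes are similar in sequence and their probes may share RNA, so single keratin values are uncertain.

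**Figure D3:**
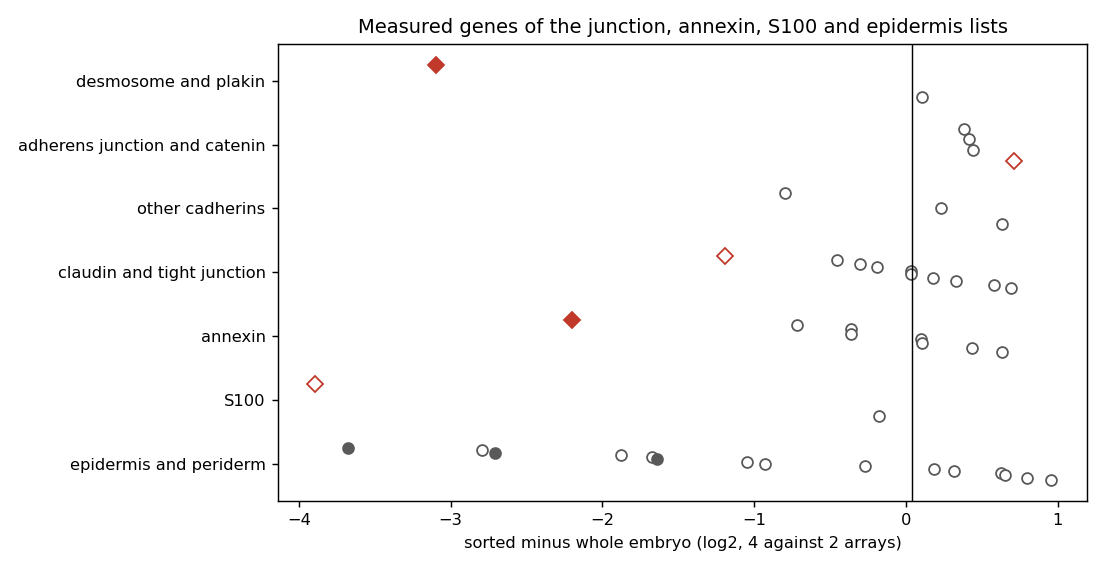
Each point is a measured gene by its brightest probe, placed by its log2 difference of 4 sorted from 2 whole-embryo arrays, with a row for each list and a vertical line at the median of all probes tested. Red diamonds are the 5 genes in the list of their family, grey circles are the other genes and filled marks passed limma, so that ppl, icn, anxa1a and cldne lie to the left of the other measured genes of their own list.

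Genes with the most similar course over the 6 arrays were found by Pearson's r of log2 signal, among 1781 named genes above background on at least 2 arrays with a range of at least 1. The 6 points share the gap between fractions and the scaling of each array, so r is a description. Closest to ppl were dbnla (0.994), zfand5b (0.993), mnd1 (0.993), fabp1b.1 (0.992) and ppp2r1bb (0.991). Closest to cldne were npc2.1 (0.996), dbnla (0.993), bhmt (0.991), acp5a (0.987) and cfb (0.981). Closest to anxa1a were fabp1b.1 (0.988), crabp1a (0.984), fbp1b (0.979), zfand5b (0.978) and mnd1 (0.976). The lists of ppl and anxa1a have zfand5b, mnd1 and fabp1b.1 in common, and that of ppl shares dbnla with cldne. For icn, whose course differed by stage, the closest were shmt1 (0.975), ambp (0.968), mcfd2 (0.966), atp5f1c (0.965) and acp5a (0.961). For cdh1, with signal near background, they were mtmr8 (0.988), lhx8a (0.979), esrp2 (0.979), tmem147 (0.978) and rcbtb1 (0.973).

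**Figure D4:**
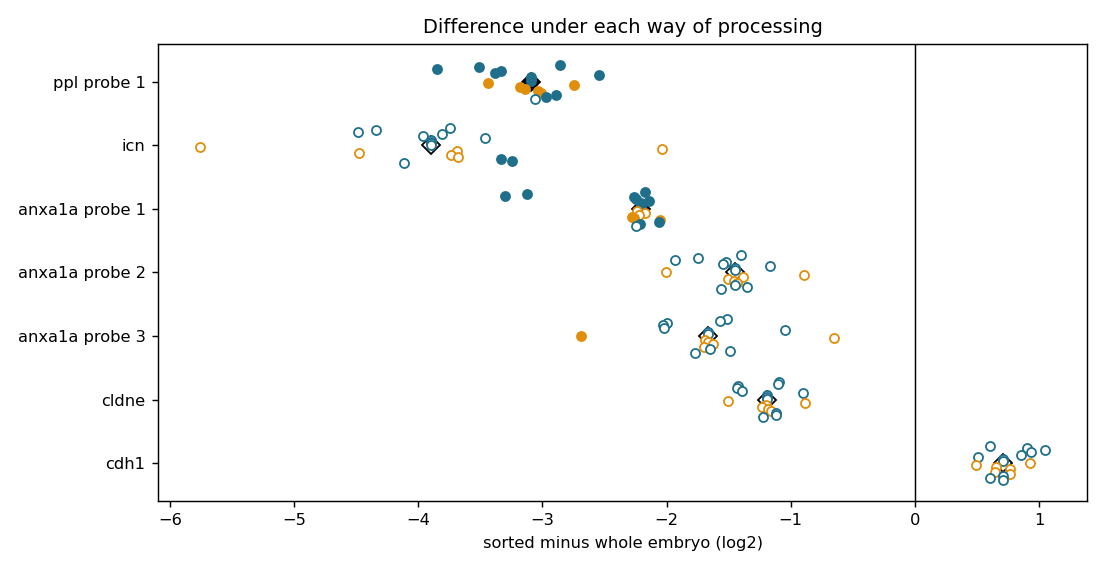
The horizontal axis is the log2 difference of sorted from whole-embryo arrays under each way of processing, with a row for each tested probe. Diamonds are the reported values, blue points other processing and models, orange points fits without 1 array, and filled points had an adjusted p under 0.05, so that ppl probe 1 is filled nearly throughout and icn spreads widest. None of the 7 tested probes changes side in the fits shown, but only other background correction, normalization or scan settings could have made one do so.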

How the data were processed

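RNA of 6 conditions was measured on 1 array each, and groups follow the sample titles. Per the file headers, the deposited scanner files hold, at scan settings 45, 55 and 65, spot intensity, local background intensity and their ratio, with a flag score per spot. The authors also deposited intensities joined over the settings and scaled by 1 number per array. The value table repeats that scaled intensity, linear and uncentred, with column medians of 0.801 to 0.922, and differs from the scanner files by at most 4.3e-07. The deposited workbook has 18 columns of per-sample values that repeat these and were not used. The scanner, image software and genome build are not given in the sources used here.

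Intensities at setting 55 went through normexp background correction (offset 50) and quantile normalization in limma 3.58.1 under R 4.3.3. Of 14784 spots, 544 empty ones, 173 Arabidopsis controls and 68 flagged probes were left out after background correction, and saturated spots were kept. A probe was above background when its net intensity passed the 95th percentile of that array's control spots, which was 212 to 370. The number of arrays limits the precision. Probes were tested singly with lmFit and eBayes, and p-values were adjusted by Benjamini-Hochberg. A fold is given as "at least" where every array of the dim side was below background, with each dim array at the higher of its own signal and the lowest signal above background there. Where a spot was saturated, only log2 differences are given. Names came from RefSeq tables: 7702 probes matched by accession, 24 by an older accession, 432 by a symbol or synonym in the description, 216 by having the same description as a named probe, and 5693 stayed unnamed. The fit was also run on simulated data with independent noise. That run cannot show whether the p-values hold for single arrays that differ in stage and line.

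All probes of the 5 genes are described. Other genes have values only if they stand in 1 of 7 lists and passed limma or lay 2-fold apart in both stage-matched Fli1 pairs, if they were reference genes (cdh2, cdh5, epcam, tp63, krt4), or if they were among the 5 closest in course to a member. The exceptions are dspa and s100a10b, each named after its values were seen as the sole measured gene of its list, and the marker genes used to check the arrays. The members, lists and rules were chosen with earlier results of these data known. Alternatives covered background correction, normalization, scan setting, filters, probe choice, single arrays and stage.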

Additional observations from a re-analysis of the deposited data

Results flagged for a closer look

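Among the 4 sorted arrays, 15 probes or genes were examined for a single array standing apart, by the gap to the nearest other array over the whole range (Dixon's ratio). Chance flags about 1 in 20 such groups, and these arrays differ in stage and line. The icn signal had a ratio of 0.927, from the high Fli1 array of 24 hpf. The krt4 ratio was 0.911, from the high Fli1 array of 28 hpf (12.12). The krt92 ratio was 0.935, from the low Fli1 array of 28 hpf (8.15). The krt15 ratio was 0.857, also from the low Fli1 array of 28 hpf, on a probe below background in all sorted arrays. For cldni the difference between Fli1 cells and whole embryos went in opposite directions at the stages, 1.45 at 18 hpf and -1.42 at 24 hpf, a change of -2.86 that was not tested because each condition had 1 array.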

How the results depend on the processing

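The 7 tested member probes kept their direction between fractions in every fit they entered among the 19 alternatives, 1 of which (scan setting 45) was chosen after seeing the data. Their groups of arrays did not overlap, so leaving out an array, changing the filter or adding stage could not turn a direction. Only the alternatives in background correction, normalization and scan setting could have done so. The labels give no replicate numbers and each condition has 1 array, so arrays could be paired by stage alone, in the fit with stage as a block. Of the member probes, 2 were lower by limma. The count was 1 among probes above background on all 6 arrays, where ppl could not enter, 0 with a stage term and Flk at 24 hpf, 3 with stage as a block or with a stage term and Flk at 18 hpf, and 1 to 2 when each array was left out in turn. The count of member probes higher was 0 throughout. Over all probes, 64 were lower and 5 higher. The lower count was 113 with 75th percentile scaling, 130 with the authors' scaled intensity, 12 among probes above background on all 6 arrays, 143 with stage as a block, 11 with a stage term and Flk at 24 hpf, and 12 to 64 with single arrays left out. The higher count was 3 at scan setting 45, 3 among probes above background on all 6 arrays, 3 with 1 probe per gene, 48 with stage as a block, 11 with a stage term and Flk at 18 hpf, 0 with Flk at 24 hpf, and 0 to 10 with single arrays left out. The 4 member probes lower in Fli1 cells of 18 hpf became 3 at scan setting 45, where anxa1a probe 2 was at -0.59. They became 5 with intensities joined over the scan settings or a normexp offset of 16. The 3 member probes lower in Flk cells became 5 with the authors' scaled intensity and 6 against the 24 hpf whole embryo. With 75th percentile scaling, joined intensities or the offset of 16 these 3 became 4. Under the alternatives other than leaving out 1 array, ppl probe 1 lay between -3.85 and -2.55 (12 fits) and anxa1a probe 1 between -3.30 and -2.06 (13 fits). The cause of these shifts was not tested. Signal over background limits ppl probes 1 and 2, cldne, cdh1 and anxa1a probe 3, which have bounds or no fold in most pairs.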
